A study of Arabidopsis thaliana and Boechera depauperata with 12 samples.

Results

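The 10 *A. thaliana* alpha-expansin genes *EXPA1*, *EXPA3*, *EXPA4*, *EXPA5*, *EXPA6*, *EXPA8*, *EXPA9*, *EXPA10*, *EXPA11* and *EXPA15* were followed through 2 heat treatments in RNA-seq counts. The genes were chosen by name, as alpha-expansins linked to growth of the cell wall, and all 10 were found among the 33977 genes of the count table. Plants given acquired heat stress (A/HS) were held at 38 °C for 1 h, at 22 °C for 1 h and then at 43 °C for 3 h, and plants given basal heat stress (B/HS) went straight to 38 °C for 3 h. Control plants stayed at 22 °C. Each condition had 2 libraries, W5 and W6 for A/HS, W3 and W4 for B/HS, and W1 and W2 for the control, and no transgene or mutation is given for any of them.

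Alpha-expansins are small secreted proteins that loosen the cell wall. They act best at acid pH and let cellulose microfibrils and the polymers bound to them slip past each other without cutting them, so that a cell under turgor pressure can enlarge. Plasma membrane proton pumps acidify the wall, xyloglucan endotransglucosylase/hydrolases (XTH) cut and rejoin xyloglucan, and cellulose synthases (CESA) lay down new microfibrils.

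The libraries held between 11819511 and 15297546 counts, of which chloroplast and mitochondrial genes took between 58.1% and 74.9%. The 10 alpha-expansins together had 386 and 370 counts in A/HS, 309 and 307 in B/HS, and 792 and 1389 in the control, so each value below rests on few reads. Levels are given as CPM, that is counts relative to the library total after correction by TMM factors, on which 1 count was worth between 0.0588 and 0.0933 CPM. Root is the tissue named in the labels, and most of the markers checked went against this. Of the 12 root markers, *PYK10* had 2033 and 3872 counts in the control, while the other 11 together had between 22 and 200 counts in a library. The 5 *CASP* genes among these, markers of the root endodermis, had between 0 and 38 counts in any library (at most 8 outside W6), while the 11 photosynthesis genes of the leaf list had between 942 and 46895. The study's methods name leaf tissue for RT–PCR, after a repeat of the heat treatments, and name no tissue for the RNA-seq libraries. The 6 heat shock genes checked had log2 fold changes between 3.08 and 3.89 after the treatments, but in the control library W2 they were also between 2.05 and 2.30 times as high as in W1. The alpha-expansins in W2 were between 0.792 and 1.61 times their level in W1, with a median of 1.13. These ratios, and those of the heat shock genes, depend on the TMM factors, 0.832 for W1 and 1.33 for W2. The totals of the 2 libraries were 12900004 and 12773029 counts. By the study's methods, the libraries of a condition were independent biological replicates, grown and prepared apart from germination on.

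All 10 genes lie apart from any other annotated gene, and none of their 50-base stretches of exon occurs elsewhere in the genome. In RefSeq's annotation of TAIR10.1, 3 are on chromosome 1, 5 on chromosome 2, 1 on chromosome 3 and 1 on chromosome 5. Their coding sequences are between 759 and 828 bases long and are between 60.9% and 79.7% identical over the 45 pairs (median 67.4%). *EXPA1* and *EXPA10* form the closest pair, at 79.7%.

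Compared per kb of exon, *EXPA1* had the highest level of the 10 in the control, at 16.9 ± 0.02 CPM per kb (SD, n = 2). With 2 libraries, of 281 and 445 counts, so small an SD does not measure the precision of the level. *EXPA1* (AT1G69530, chr1:26141726-26143538, plus strand) is expressed in guard cells, where it takes part in stomatal movement. It made up between 31.6% and 34.9% of the summed level per kb. *EXPA10* followed at 7.22 ± 0.47 CPM per kb and *EXPA6* at 7.18 ± 1.19, and the libraries of this pair overlapped. *EXPA4* came next with 4.35 ± 0.44 CPM per kb. The libraries of *EXPA4* lay below those of *EXPA6* and overlapped those of *EXPA15*. The remaining members ran without a gap between neighbours down to *EXPA9*, at 1.91 ± 0.20 CPM per kb.

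The order of levels was different in the heated plants. *EXPA6* led in A/HS with 5.60 ± 0.90 CPM per kb, and *EXPA10* led in B/HS with 6.46 ± 1.27 CPM per kb. *EXPA10* made up between 36.6% and 40.6% of the summed level per kb in B/HS, against 14.1% and 14.2% in the control. *EXPA1* made up between 11.6% and 18.3% in A/HS and between 13.3% and 14.2% in B/HS. The sum over the 10 genes was 17.4 and 18.1 CPM per kb in A/HS, 18.1 and 15.2 in B/HS, and 48.5 and 53.5 in the control, so that neither treatment's libraries reached those of the control.

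**Figure D1:**
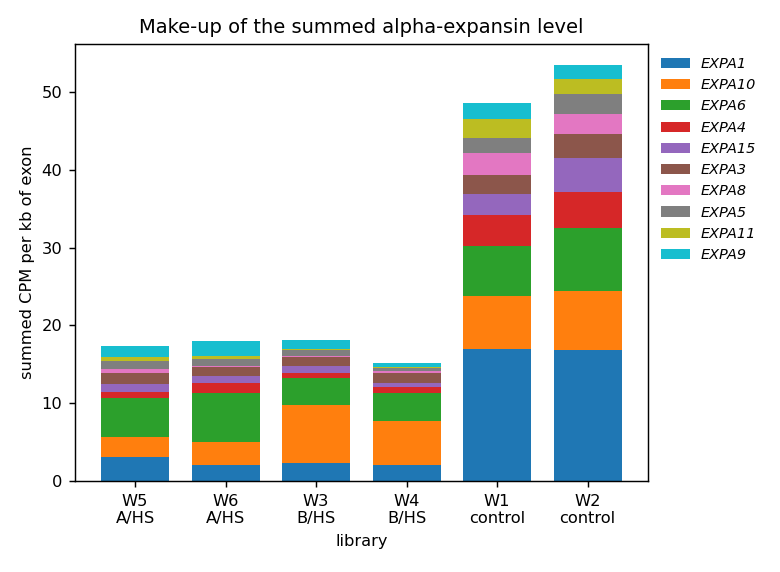
Summed level of the 10 alpha-expansins (CPM per kb of exon, vertical axis) in each library (horizontal axis), with a colour for each gene. The 4 heated libraries sum to between 15.2 and 18.1 CPM per kb, and the control libraries to 48.5 and 53.5, with *EXPA1* the tallest block in the control and *EXPA10* in B/HS.

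The 250 bases before the annotated start of 3 members are shown, because these members mark the ends of the range. *EXPA1* had the highest control level, *EXPA10* had the fold change nearest to 0 after B/HS and *EXPA11* the most negative. The sequences are from TAIR10.1, written 5′ to 3′ on the strand of the gene, and capitals mark the letters of a motif searched for. The windows are chr1:26141476-26141725 (plus strand) for *EXPA1*, chr1:9259182-9259431 (plus strand) for *EXPA10* and chr1:6999840-7000089 (minus strand) for *EXPA11*.
EXPA1: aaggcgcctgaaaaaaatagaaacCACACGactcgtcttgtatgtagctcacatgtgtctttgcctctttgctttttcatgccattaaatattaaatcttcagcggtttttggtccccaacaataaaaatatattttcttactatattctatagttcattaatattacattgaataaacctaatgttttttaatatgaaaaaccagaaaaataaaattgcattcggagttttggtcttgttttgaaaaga
EXPA10: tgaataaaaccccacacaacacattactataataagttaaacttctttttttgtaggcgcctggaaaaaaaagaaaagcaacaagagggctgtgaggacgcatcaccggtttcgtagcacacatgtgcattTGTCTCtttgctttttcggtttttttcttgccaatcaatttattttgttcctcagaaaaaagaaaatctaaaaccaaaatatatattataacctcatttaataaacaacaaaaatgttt
EXPA11: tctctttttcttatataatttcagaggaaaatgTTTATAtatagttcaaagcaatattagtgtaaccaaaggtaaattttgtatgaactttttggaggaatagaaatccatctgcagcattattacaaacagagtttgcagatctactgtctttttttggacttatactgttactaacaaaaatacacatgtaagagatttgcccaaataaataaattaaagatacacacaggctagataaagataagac
The capitals are a brassinosteroid element read on the other strand in *EXPA1*, an auxin element in *EXPA10* and the letters of a TATA box read on the other strand in *EXPA11*.

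The motifs were searched on both strands of 300-base windows, from 250 bases before to 50 after the start. The G-box CACGTG was in 0 of the 10 windows and in 7.68% of all windows, those of 27443 protein-coding genes of the nucleus. The heat shock element GAANNTTC was in 1 member (*EXPA15*), against 11.6% of all windows. A brassinosteroid element, CGTGTG or CGTGCG, was in *EXPA1* and *EXPA6*, against 8.19% of all windows. The auxin element TGTCTC was in 4 members (*EXPA5*, *EXPA6*, *EXPA8* and *EXPA10*), against 14.2%. The letters TATAAA were in 6 members, against 52.1%. These matches describe the letters only. In the 250 bases before the start, the closest pair, *EXPA1* and *EXPA10*, also share the 14-base run ctctttgctttttc. The run begins 186 bases before the start of *EXPA1* and 116 before that of *EXPA10*. None of the other 44 pairs of members shares a run of more than 12 bases in these 250. This comparison was chosen after the values of the pair were seen.

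After B/HS, 9 of the 10 alpha-expansins fell, and 5 of them fell at least 4-fold. *EXPA10* alone did not pass the test. Genes were called DE at an adjusted *P*-value under 0.05 (edgeR's quasi-likelihood test, Benjamini–Hochberg over 17669 genes) and a change of at least 4-fold, and "fell" or "rose" is used of any gene past the adjusted *P*-value. Over all genes tested, 4.92% were DE and lower and 3.76% DE and higher after B/HS, and 19.7% were lower and 20% higher by the adjusted *P*-value alone. The median log2 fold change of the members was -2.12, against -0.02 over all genes tested. With 2 libraries against 2, an exact permutation test cannot give a *P*-value under 0.333, so the calls rest on the spread that edgeR estimates across genes. In bulk RNA, fewer cells that express a gene and less RNA per cell cannot be told apart.

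*EXPA11* (AT1G20190, chr1:6998335-6999839, minus strand) had the most negative fold change, except without W4, when *EXPA8* passed it (log2 -5.09 against -4.84). It had 1 and 1 counts in B/HS, against 35 and 44 in the control. The ratio of these counts, scaled for library size, was 34.1-fold lower in B/HS, with an exact 95% interval for counting error alone between 9.12-fold and 286-fold. edgeR's log2 fold change was -4.97 ± 0.63 (SE, adjusted *P* = 5.03e-05), which at such counts depends on the prior count.

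*EXPA8* (AT2G40610, chr2:16948791-16950705, minus strand) had 1 and 5 counts in B/HS and 39 and 56 in the control, or 0.0910 and 0.387 CPM in B/HS against 3.64 and 3.29 CPM in the control. Its log2 fold change was -3.74 ± 0.63 (adjusted *P* = 0.000469), and it lay between -5.09 without W4 and -3.14 without W3. The B/HS libraries of *EXPA8* lay well apart from each other and far below the control. *EXPA8* and *EXPA11* passed the filter on low counts only through the control libraries, and all 10 members were kept when every gene with at least 1 count was tested, with the same 5 DE.

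*EXPA1* had 3.73 and 3.33 CPM in B/HS, against 26.2 and 26.2 CPM in the control. It was 7.42-fold lower (log2 -2.89 ± 0.23, adjusted *P* = 2.81e-06), and the libraries within each condition were close together. *EXPA4* (AT2G39700, chr2:16543832-16545746, minus strand) had 0.910 and 1.16 CPM in B/HS and 6.06 and 6.998 CPM in the control, a 6.24-fold fall (log2 -2.64 ± 0.35, adjusted *P* = 7.02e-05). The groups of *EXPA4* did not overlap. *EXPA15* (AT2G03090, chr2:916806-918671, minus strand) had 1.37 and 0.697 CPM in B/HS, against 3.92 and 6.29 CPM in the control. It was 5.07-fold lower (log2 -2.34 ± 0.41, adjusted *P* = 0.000568), with control libraries that differed from each other more than those of *EXPA1* or *EXPA4* did.

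The other 4 members that fell did so by less than 4-fold. *EXPA5* (AT3G29030, chr3:11011262-11013451, minus strand), which is needed for growth promoted by brassinosteroids, had 1.18 and 0.619 CPM in B/HS and 2.80 and 3.76 CPM in the control (log2 -1.89 ± 0.42, adjusted *P* = 0.00332). *EXPA3* (AT2G37640, chr2:15787523-15790139, minus strand) had 2.09 and 2.24 CPM in B/HS, against 4.29 and 5.53 CPM in the control (log2 -1.18 ± 0.31, adjusted *P* = 0.00781). *EXPA5* was the member just outside the 4-fold threshold. *EXPA9* (AT5G02260, chr5:463073-465273, plus strand) had 1.55 and 0.774 CPM in B/HS and 2.80 and 2.41 CPM in the control (log2 -1.17 ± 0.43, adjusted *P* = 0.0421). *EXPA6* (AT2G28950, chr2:12431338-12433796, minus strand) had 5.55 and 5.73 CPM in B/HS, against 10.08 and 12.8 CPM in the control (log2 -1.02 ± 0.23, adjusted *P* = 0.00321). In none of these 4 did the B/HS libraries overlap the control.

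*EXPA10* (AT1G26770, chr1:9259432-9261313, plus strand), which promotes leaf growth, had 11.6 and 8.75 CPM in B/HS, against 10.8 and 11.9 CPM in the control. Its groups overlapped (log2 -0.17 ± 0.22, adjusted *P* = 0.571). Its B/HS level thus differed little from the control while that of *EXPA1*, the member closest to it in sequence, was 7.42-fold lower.

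Without W2 or without W4, *EXPA15* dropped below 4-fold and 4 members were DE, and without W1 or without W3 *EXPA5* passed 4-fold and 6 were. The call of *EXPA9* was lost in DESeq2 and without W1, W2 or W4, and that of *EXPA3* in DESeq2 and without W2 or W3.

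**Figure D2:**
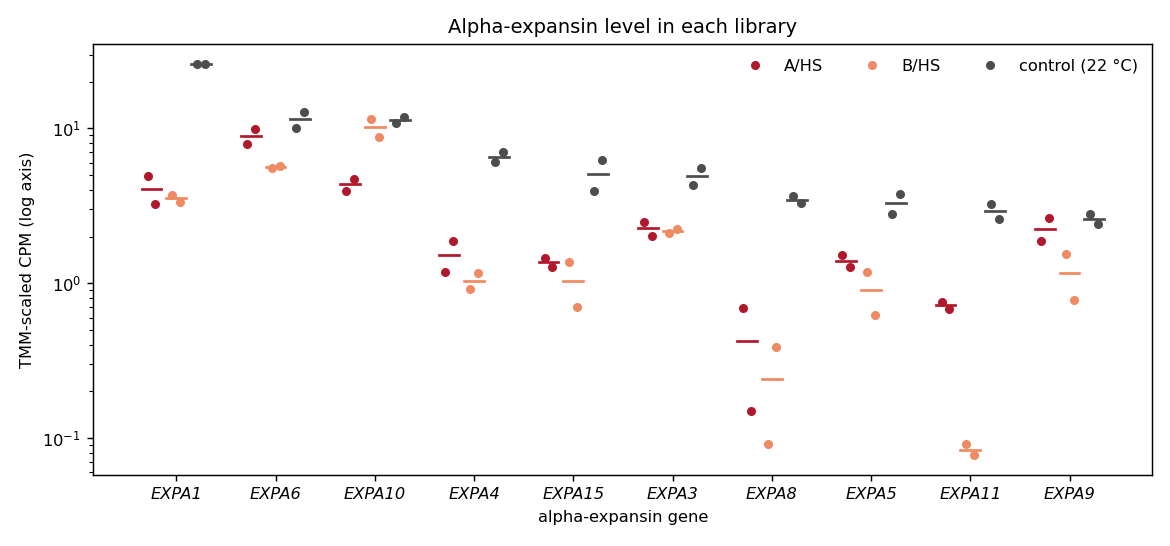
Level of each alpha-expansin (TMM-scaled CPM, log axis) in the A/HS, B/HS and control libraries, with a point for each library and a bar at the mean of 2. *EXPA1* sits between 3.23 and 4.91 CPM in the 4 heated libraries and at 26.2 CPM in both control libraries, *EXPA10* overlaps the control in B/HS, and *EXPA11* is at the level of 1 count in B/HS.

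After A/HS, 8 of the 10 alpha-expansins fell and 3 of them were DE, *EXPA1*, *EXPA4* and *EXPA8*. *EXPA6* and *EXPA9* did not pass the test. Over all genes tested, 3.67% were DE and lower and 2.92% DE and higher, and 17.6% were lower and 18.3% higher by the adjusted *P*-value alone. The median log2 fold change of the members was -1.65, against 0.02 over all genes tested. The same control libraries serve both comparisons, so the counts after A/HS and B/HS are not independent.

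*EXPA1* had 4.91 and 3.23 CPM in A/HS, against the 26.2 and 26.2 CPM of the control, a 6.39-fold fall (log2 -2.68 ± 0.23, adjusted *P* = 3.5e-06). *EXPA8* had 10 and 2 counts in A/HS and 39 and 56 in the control (log2 -2.98 ± 0.56, adjusted *P* = 0.00125). The A/HS libraries of *EXPA8* were far apart, and the log2 fold change lay between -4.43 without W5 and -2.28 without W6. *EXPA4* had 1.18 and 1.88 CPM in A/HS, against 6.06 and 6.998 CPM in the control. Its 4.29-fold fall (log2 -2.10 ± 0.32, adjusted *P* = 0.000297) was the one just inside the threshold, and it was below 4-fold without W5.

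*EXPA11* had 0.761 and 0.677 CPM in A/HS, against 3.27 and 2.59 CPM in the control. It was 3.99-fold lower (log2 -1.997 ± 0.43, adjusted *P* = 0.00284) and so lay just outside the threshold. It was DE with RLE factors, in DESeq2, with the weaker filter, with the 4 compared libraries only and without organelle genes. With 1 library left out, its log2 fold change lay between -2.20 (without W2) and -1.82 (without W1). It was past 4-fold without W2, W3 or W5. *EXPA15* had 1.45 and 1.28 CPM in A/HS and 3.92 and 6.29 CPM in the control (log2 -1.91 ± 0.38, adjusted *P* = 0.0018). With 1 library left out, the log2 fold change of *EXPA15* lay between -2.18 (without W1) and -1.55 (without W2). It was past 4-fold without W1 or W5. The A/HS libraries of *EXPA11* and of *EXPA15* each lay close together and below the control.

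*EXPA10* had 3.94 and 4.74 CPM in A/HS, against 10.8 and 11.9 CPM in the control, a 2.62-fold fall (log2 -1.39 ± 0.23, adjusted *P* = 0.000546). *EXPA5* had 1.52 and 1.28 CPM in A/HS and 2.80 and 3.76 CPM in the control (log2 -1.24 ± 0.39, adjusted *P* = 0.0244). *EXPA3* had 2.49 and 2.03 CPM in A/HS, against 4.29 and 5.53 CPM in the control (log2 -1.13 ± 0.30, adjusted *P* = 0.0106). The calls of *EXPA3* and *EXPA5* were lost in DESeq2 and without W2 or W6, and that of *EXPA5* also without W1.

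The 2 members that did not pass were *EXPA6* and *EXPA9*. *EXPA6* had 7.89 and 9.92 CPM in A/HS and 10.08 and 12.8 CPM in the control (log2 -0.37 ± 0.22, adjusted *P* = 0.206). *EXPA9* had 1.87 and 2.63 CPM in A/HS, against 2.80 and 2.41 CPM in the control (log2 -0.21 ± 0.38, adjusted *P* = 0.711). The groups overlapped for *EXPA9* but not for *EXPA6*.

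The treatments were also compared with each other, A/HS against B/HS. They differ in peak temperature, in the prior heat with recovery and in total time, and these cannot be told apart here. Of the 10 members, 2 differed by the adjusted *P*-value, 1 in each direction, and 1 of these was DE. Over all genes tested, 0.611% were DE and lower and 1.17% DE and higher in A/HS than in B/HS, and 7.63% were lower and 6.25% higher by the adjusted *P*-value alone. For 10 members, 1 in each direction by the adjusted *P*-value is close to the latter shares. *EXPA10* was 2.33-fold lower in A/HS, with 3.94 and 4.74 CPM in A/HS against 11.6 and 8.75 CPM in B/HS (log2 -1.22 ± 0.24, adjusted *P* = 0.00617). *EXPA11* was higher in A/HS, with 11 and 9 counts in A/HS against 1 and 1 in B/HS (log2 2.97 ± 0.76, adjusted *P* = 0.0237). The groups overlapped for neither gene.

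The difference in *EXPA11* was lost without each of W3, W4, W5 and W6 in turn and in DESeq2, and that in *EXPA10* without W3 (adjusted *P* = 0.0988). The members nearest to the threshold were *EXPA9*, at log2 0.97 ± 0.43 (adjusted *P* = 0.146), and *EXPA6*, at log2 0.66 ± 0.23 (adjusted *P* = 0.0749), and neither passed.

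**Figure D3:**
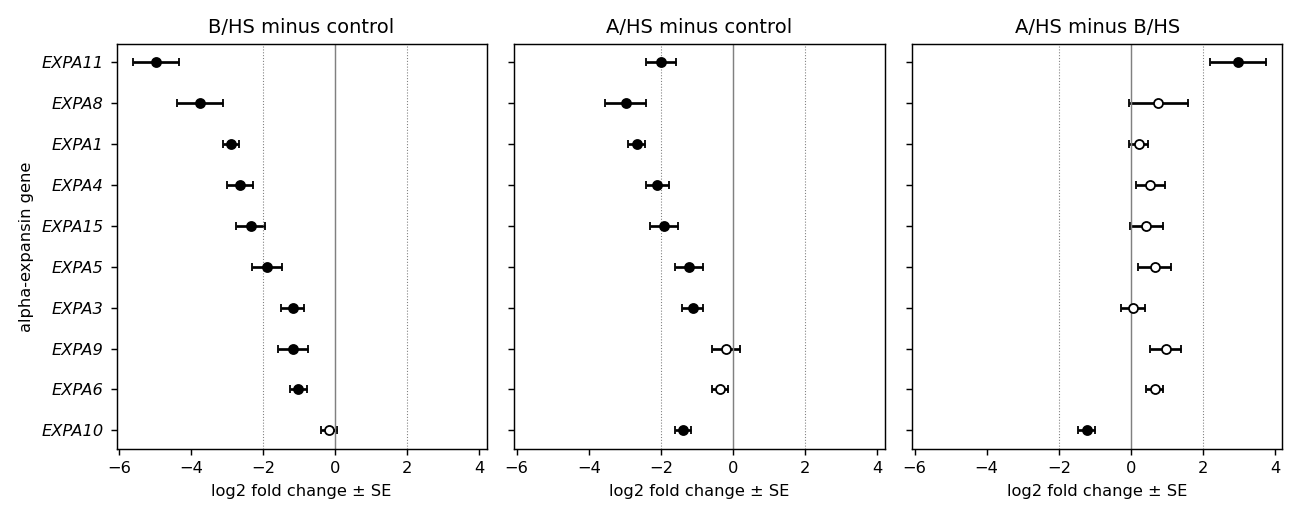
Log2 fold change of each alpha-expansin with its standard error, for B/HS minus control, A/HS minus control and A/HS minus B/HS. Filled points have an adjusted *P*-value under 0.05 and dotted lines mark 4-fold, and all 10 points lie below 0 in both comparisons with the control, while *EXPA10* and *EXPA11* are filled on opposite sides of 0 in the last panel.

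Other genes of the same process were set beside the alpha-expansins. Of 26 other expansin genes, 7 passed the filter on low counts and 9 had no count in any library. Of the 7 tested, 2 fell and 0 rose after A/HS in edgeR, also in DESeq2 and at an unadjusted *P*-value under 0.05, and 1 fell and 3 rose after B/HS (1 and 2 in DESeq2). Their median log2 fold change was -0.52 after A/HS and 0.14 after B/HS. The beta-expansin *EXPB3* had 2.21 and 4.36 CPM in A/HS, 2.09 and 2.09 CPM in B/HS, and 8.49 and 9.06 CPM in the control, and it was DE after B/HS (log2 -2.07 ± 0.32, adjusted *P* = 0.000216).

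The expansin-like gene *EXLA2* had 1.87 and 2.93 CPM in A/HS, 13.9 and 9.83 CPM in B/HS, and 3.36 and 2.65 CPM in the control. It rose 3.99-fold after B/HS (log2 1.996 ± 0.28, adjusted *P* = 0.000127) and was lower in A/HS than in B/HS (log2 -2.31 ± 0.29, adjusted *P* = 0.000599). *EXLA1*, of the same subfamily, rose after B/HS (log2 0.81 ± 0.20, adjusted *P* = 0.00653, lost without W2 or W4) and fell after A/HS (log2 -0.98 ± 0.22, adjusted *P* = 0.00354). The alpha-expansin *EXPA13*, which is not among the 10, had 2.84 and 1.88 CPM in A/HS, 6.74 and 6.43 CPM in B/HS, and 3.08 and 3.65 CPM in the control, and rose after B/HS (log2 0.95 ± 0.27, adjusted *P* = 0.0136). This call was lost in DESeq2 and without W1, W3 or W4.

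Of the 33 XTH genes, 22 were tested. After A/HS 10 fell and 2 rose, and after B/HS 6 fell and 2 rose, with medians of log2 -0.82 and -0.28. *XTH22* had 8.65 and 8.12 CPM in A/HS, 63.9 and 60.5 CPM in B/HS, and 107 and 58.9 CPM in the control, and fell 9.84-fold after A/HS (log2 -3.30 ± 0.27, adjusted *P* = 3.28e-06). *XTH23* rose 4.08-fold after B/HS (log2 2.03 ± 0.20, adjusted *P* = 7.96e-06) and had a log2 fold change of 0.04 ± 0.20 after A/HS (adjusted *P* = 0.905). *XTH18* and *XTH4* fell after both treatments, *XTH18* by log2 -2.44 after A/HS and -1.90 after B/HS, and *XTH4* by -1.67 and -1.14.

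Of the 10 cellulose synthase genes, 8 were tested. After A/HS 0 passed in edgeR and 0 in DESeq2, with 1 (*CESA4*) at an unadjusted *P*-value under 0.05. After B/HS *CESA5*, which makes primary wall cellulose, fell in edgeR (log2 -0.75 ± 0.23, adjusted *P* = 0.0191), but not without W2, W3 or W4, and 0 passed in DESeq2. Of the 11 plasma membrane proton pump genes, 7 were tested. *AHA2*, a main pump of the plasma membrane, had 40.3 and 62.2 CPM in B/HS, against 92.7 and 91.2 CPM in the control (log2 -0.84 ± 0.22, adjusted *P* = 0.00875). This call was lost without W3 (log2 -0.58, adjusted *P* = 0.163). *AHA9* was DE and higher after both treatments, with 22 and 11 counts in A/HS, 29 and 51 in B/HS, and 0 and 4 in the control. Its call after A/HS was lost without W5 (adjusted *P* = 0.0553), and without W2 the control held 0 counts.

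**Figure D4:**
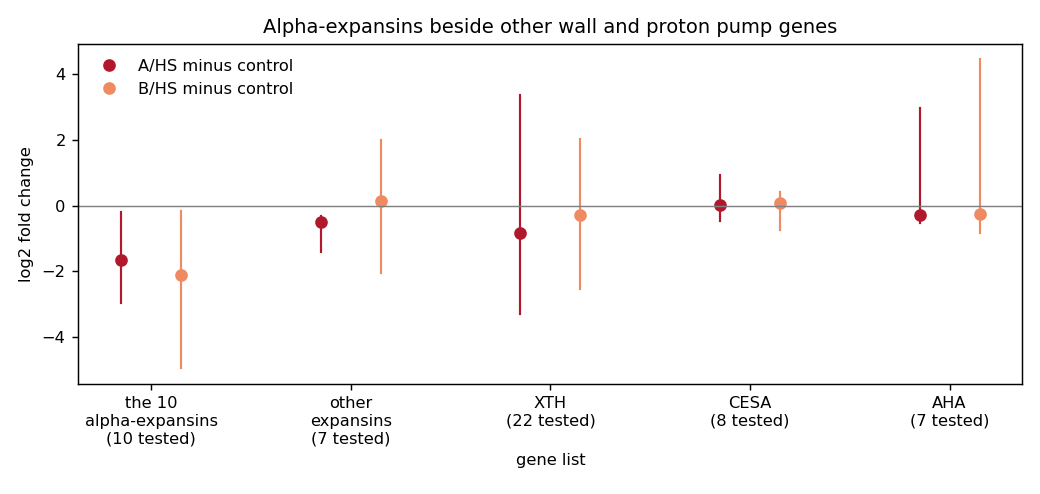
Log2 fold change against the control (vertical axis) of the tested genes of each list (horizontal axis), with a point at the median and a line over the range. The 10 alpha-expansins have medians of -1.65 after A/HS and -2.12 after B/HS with their whole range below 0, and the range of each other list plotted crosses 0 after B/HS. After A/HS the range of the other expansins also lies below 0.

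Some tissue markers also differed from the control. Of the 12 root markers, 2 passed the filter on low counts and were tested. *PYK10* fell after A/HS (log2 -1.86 ± 0.34, adjusted *P* = 0.00107) and after B/HS (log2 -1.96 ± 0.34, adjusted *P* = 0.000611). *NRT2.1* rose after A/HS (log2 1.08 ± 0.30, adjusted *P* = 0.0127, lost in DESeq2) and fell after B/HS (log2 -1.48 ± 0.37, adjusted *P* = 0.00662). It was higher in A/HS than in B/HS (log2 2.56 ± 0.35, adjusted *P* = 0.000878). The summed level of the 12 root markers was 37.4 and 99.01 CPM in A/HS, 52.6 and 59.5 CPM in B/HS, and 193 and 231 CPM in the control, nearly all of it from *PYK10*, a beta-glucosidase of root ER bodies. Without *PYK10* the sum was 6.64 and 15 CPM in A/HS, 2 and 3.1 in B/HS, and 3.36 and 3.65 in the control. Of the 12, between 0 and 5 were at 0 counts in a library. The 11 leaf markers summed to 7696 and 5357 CPM in A/HS, 9372 and 8361 in B/HS, and 10099 and 8219 in the control. After A/HS 4 of them fell in edgeR and 5 in DESeq2. The edgeR calls (*LHCB1.1*, *LHCB2.1*, *RBCS1A* and *RBCS2B*) were lost without W1 or W6. All but that of *LHCB2.1* were also lost without W3 or W4. Those of *RBCS1A* and *RBCS2B* were lost with the 4 compared libraries only, and that of *RBCS1A* without W5. After B/HS 0 changed by edgeR's adjusted *P*-value (1, *LHCA1*, was higher at an unadjusted *P*-value under 0.05 and in DESeq2). The part of these shifts in the alpha-expansin changes was not tested.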

How the data were processed

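RNA-seq was done on 2 *A. thaliana* libraries per condition. Reads were trimmed (fastx toolkit) and mapped to TAIR10 with TopHat 1.4.1, and the authors deposited raw read counts per gene, with no normalization. How reads were counted, by strand or when mapped to several places, is not given in the sources used here. Counts of the other species of the series were not used here.

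The counts of the 6 libraries were fitted together in edgeR 4.0.16 (R 4.3.3) with TMM factors, filterByExpr and the quasi-likelihood test, and *P*-values were adjusted over all 17669 genes tested. Standard errors were derived from the log2 fold change and the F statistic (size over root F). Within each condition the difference between libraries exceeded sampling noise (chi-square per degree of freedom between 8.44 and 35.0). This was computed on raw counts scaled to library totals, with organelle genes and without TMM factors. It thus also holds differences in composition between the libraries. Alternatives were RLE factors, DESeq2 1.42.0, other filters, the compared libraries only, no organelle genes, glmTreat and each library left out. The edgeR and DESeq2 scripts were tested on simulated data, where DESeq2 recovered fewer of the changed genes than edgeR.

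The members and lists were chosen with earlier results of these data known. All members were named. From each other list, genes were named out of up to 4 with the smallest adjusted *P*-value after either treatment, though not all of these were. *LHCA1* and the *CASP* genes were named outside this rule. Exon lengths, positions and sequences came from RefSeq's TAIR10.1.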

Additional observations from a re-analysis of the deposited data

Results flagged for a closer look

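The change from the control differed between the treatments for 2 alpha-expansins, by the direct edgeR test of A/HS against B/HS, 1 in each direction, where 7.63% of all genes tested were lower and 6.25% higher. *EXPA10* was lower in A/HS than in B/HS (log2 fold change -1.22, adjusted *P* = 0.00617), with lower levels in 2 of 2 A/HS libraries, and the call was lost without W3. *EXPA11* was higher in A/HS than in B/HS (log2 fold change 2.97, adjusted *P* = 0.0237), in 2 of 2 libraries, and its B/HS level rests on 1 count in each library. This call was lost in DESeq2 and without each of W3, W4, W5 and W6 in turn.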

How the results depend on the processing

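The DE counts of 5 members after B/HS and 3 after A/HS lay between 4 and 6 and between 3 and 4 with 1 library left out, and the single DE member of A/HS against B/HS between 0 and 1. The adjusted *P*-value alone gave 9 members after B/HS, 8 after A/HS and 2 between the treatments. A minimum of 10 counts in every library left out *EXPA5*, *EXPA8*, *EXPA11* and *EXPA15*, kept the other 6 and gave 2 DE after B/HS, 2 after A/HS and 0 between the treatments, with medians of -1.26 after B/HS and -1.30 after A/HS. DESeq2 and glmTreat each gave 0 DE members between the treatments. A fit of the 4 compared libraries alone also gave 0, but it tested 8 members, without *EXPA8* and *EXPA11*. *EXPA11* was thus not tested in this fit or with the minimum of 10 counts, so neither result bears on its call. The median after B/HS lay between -2.46 and -1.68 with 1 library left out, and after A/HS between -1.66 and -1.45.

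Of the 346 values of single members under the alternatives, 320 kept their direction and side of an adjusted *P*-value of 0.05, 20 lost that call and 6 changed sign, all 6 uncalled. The 320 include values of members uncalled in the main fit, which had no call to lose. They also include fits that left out a library of the condition not compared. With the 4-fold threshold added, 8 values were no longer DE and 12 became DE. With 1 library left out, *EXPA10* after B/HS lay between -0.39 and 0.043 (above 0 without W4) and *EXPA9* after A/HS between -0.45 and 0.035 (above 0 without W5). Between the treatments, *EXPA1* lay between -0.13 and 0.48, *EXPA3* between -0.11 and 0.20 and *EXPA8* between -0.71 and 2.12 (below 0 without W5), and *EXPA15* between -0.0056 and 0.97 (below 0 without W4). The causes were not tested. No paired analysis was possible because the labels give no replicate numbers that the conditions share. Few reads per member limit the precision.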
